A study of Mus musculus with 8 samples.

Results

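F-box proteins are the substrate receptors of SCF ubiquitin ligases, in which the scaffold cullin CUL1 carries the RING protein RBX1 at one end and the adaptor SKP1 with an F-box protein at the other. The F-box binds SKP1, and the rest of the protein selects the substrate that is to be tagged with ubiquitin. The family is named by that second part: Fbxw proteins carry WD40 repeats, Fbxl proteins leucine-rich repeats, and Fbxo proteins other or no recognised domains. Tagged substrates are degraded by the proteasome, where Psmd14 removes the ubiquitin chain, while Ddb1 serves the CUL4 ligases, a neighbouring cullin family with receptors of its own. In mouse embryonic stem cells Fbxo15 is a widely used marker of the undifferentiated state.

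The genes described here are those whose single annotated symbol is Fbxo, Fbxl or Fbxw followed by a number. They numbered 66 of the 18193 genes represented on the arrays, with 32 Fbxo, 16 Fbxl and 18 Fbxw genes. The choice used symbols only and no measured value. They were read by 114 probe sets, 40 genes by a single one and 26 by several, and the brightest probe set, by its mean over all arrays, stood for its gene. Of the 66, 50 had a mean signal of at least 5 on the log2 scale, the limit used below as a filter on dim probe sets, and 16 lay under it. The 16 comprised 2 Fbxo, 5 Fbxl and 9 Fbxw genes.

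The cells belonged to NG4, a line of mouse embryonic stem cells, and were reverse transfected with small interfering RNA (siRNA) and collected 48 h later. The groups were siSox2, siPsmd14 and siDdb1, each directed at the gene of that name, and siNonTarget, a non-targeting siRNA that served as the control. Each group had 2 Affymetrix arrays, 8 in all, and all groups shared the cell line, the transfection and the time. The sequences and number of siRNAs per target were not given in the sources used here, so an effect of a single siRNA on other genes cannot be told apart from the effect of losing its target. Values are log2 of the deposited intensity, a fold change is a difference of group means on that scale, and a gene passed the threshold at an adjusted p of 0.05 in limma. With 2 arrays a group the median standard error (SE) of a log2 fold change was 0.15, or 0.34 on either side at 95%. The labels do not say whether a group's arrays stem from different cultures. The p-values therefore set a difference only against the scatter of these arrays, pooled over the 4 groups and moderated by limma. That scatter may be technical.

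The defining markers of embryonic stem cells were present. All 7 of the marker genes tested, among them Pou5f1, Nanog and Zfp42, had mean signals between 10.27 and 14.05, and 1 of them, Esrrb, fell in siSox2 (-0.58, adjusted p = 0.0399). All 7 had fold changes below 0 in each knockdown, with medians of -0.40 in siSox2, -0.43 in siPsmd14 and -0.14 in siDdb1, and the others did not pass. The part of this shift in the F-box results was not tested. The 7 fibroblast markers, which feeder cells would carry, had means of 3.14 to 5.63. Against siNonTarget 1 of these 7 fell in siSox2, and none passed in siPsmd14 or siDdb1. Set against siSox2, 1 was higher in siPsmd14 and 1 in siDdb1. Of the targeted genes, Sox2 read 12.10 and 11.84 in siSox2, against 12.23 and 12.47 in siNonTarget (-0.38, adjusted p = 0.301). Psmd14 read 11.88 and 11.75 in siPsmd14, against 12.07 and 11.97 in siNonTarget (-0.21, adjusted p = 0.522). Ddb1 read 9.67 and 10.73 in siDdb1, against 11.88 and 11.81 in siNonTarget (-1.65, adjusted p = 0.147), and siDdb1 set against siSox2 gave -1.92 (adjusted p = 0.00888). Each targeted gene was below the control on both arrays of its group, and none passed the threshold against siNonTarget.

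Most F-box genes lay close to the control in every knockdown. The spread of the 4 group means had a median of 0.33 over the 66 genes, against 0.31 over all genes, and it exceeded 1 log2 unit in 4 F-box genes (6.06%), against 6.63% of all genes. Those 4 were Fbxo2, Fbxo32, Fbxl12 and Fbxo21. In siSox2 58 of the 66 lay within 0.5 log2 units of the control, in siPsmd14 58 and in siDdb1 63 (87.9%, 87.9% and 95.5%), beside 88%, 89.8% and 94.1% of all genes. The median fold change of the 66 was -0.07 in siSox2, -0.02 in siPsmd14 and -0.07 in siDdb1, beside -0.03, -0.01 and -0.01 over all genes. In at least 1 of the 6 comparisons between groups 6 F-box genes passed the threshold, namely Fbxo2, Fbxo32, Fbxo34, Fbxl12, Fbxo21 and Fbxl19, and 60 passed in none.

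**Figure D1:**
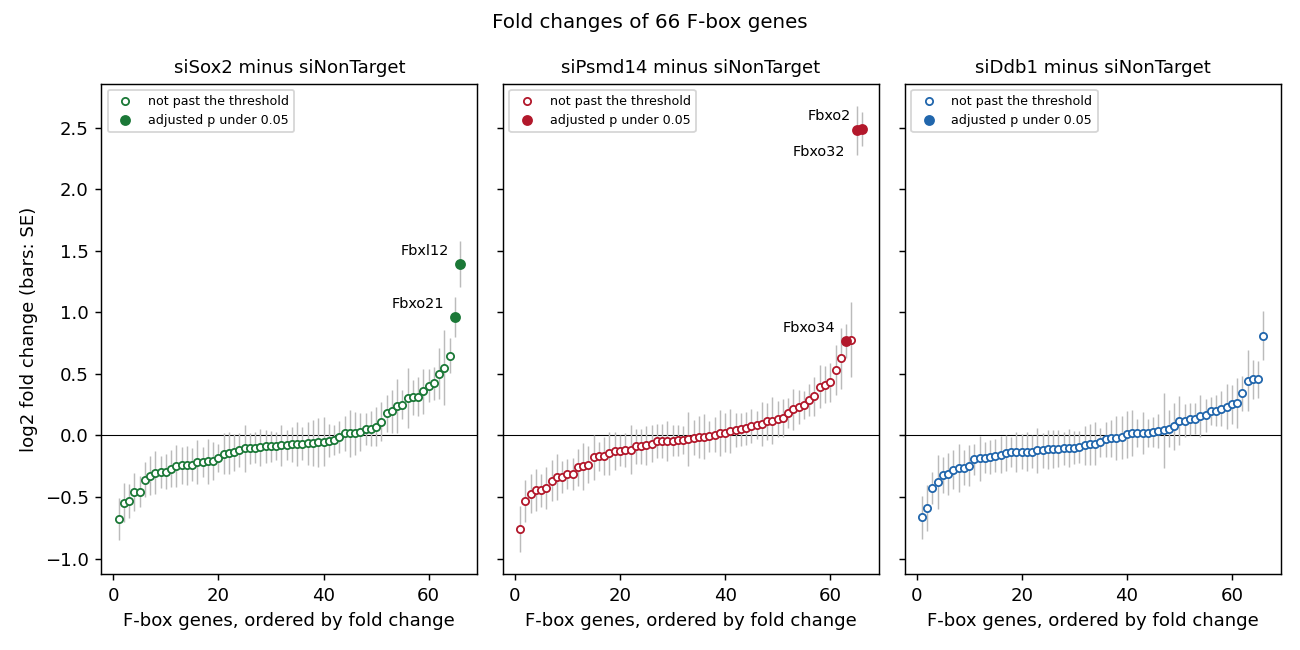
Log2 fold change of each of the 66 F-box genes in siSox2, siPsmd14 and siDdb1 against siNonTarget, ordered from low to high within each panel; bars are the SE from limma and filled points passed an adjusted p of 0.05. Fbxl12 (1.39) and Fbxo21 (0.96) stand above the rest in siSox2, Fbxo2 and Fbxo32 (both 2.48) with Fbxo34 (0.77) passed in siPsmd14, and no point is filled in siDdb1.

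The proximal promoters of 4 of these genes are shown because they belong to the genes that passed against the control, Fbxo2 and Fbxo34 in siPsmd14 and Fbxl12 and Fbxo21 in siSox2. Fbxo32 also passed in siPsmd14, but the promoter source had no entry for it. The promoters shown are RefSeq sequences of build GRCm38.p6, each 300 bases from 250 before to 50 after the annotated start, written 5′ to 3′ on the gene's strand. Fbxo2 lies at chr4:148160418-148160717 on the plus strand, Fbxo34 at chr14:47472311-47472610 on the plus strand, Fbxl12 at chr9:20644718-20645017 on the minus strand and Fbxo21 at chr5:117976520-117976819 on the plus strand. Capitals mark matches to the AP-2 motif GCCNNNGGC, which reads the same on both strands.
Fbxo2: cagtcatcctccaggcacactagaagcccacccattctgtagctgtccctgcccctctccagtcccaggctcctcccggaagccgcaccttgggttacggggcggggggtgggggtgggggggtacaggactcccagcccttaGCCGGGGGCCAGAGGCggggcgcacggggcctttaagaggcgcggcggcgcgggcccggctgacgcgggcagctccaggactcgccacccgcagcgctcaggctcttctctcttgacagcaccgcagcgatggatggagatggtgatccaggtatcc
Fbxo34: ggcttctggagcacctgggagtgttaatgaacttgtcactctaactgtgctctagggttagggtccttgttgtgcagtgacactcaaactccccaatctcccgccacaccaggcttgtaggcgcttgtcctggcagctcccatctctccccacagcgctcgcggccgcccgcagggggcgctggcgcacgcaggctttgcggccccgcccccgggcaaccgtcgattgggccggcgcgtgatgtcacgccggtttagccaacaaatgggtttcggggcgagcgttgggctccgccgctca
Fbxl12: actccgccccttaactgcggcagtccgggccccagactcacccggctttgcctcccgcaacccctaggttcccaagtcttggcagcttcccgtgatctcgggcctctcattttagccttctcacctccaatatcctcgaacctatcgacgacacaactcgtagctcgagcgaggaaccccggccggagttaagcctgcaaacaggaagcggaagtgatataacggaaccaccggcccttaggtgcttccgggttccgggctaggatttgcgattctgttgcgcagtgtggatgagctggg
Fbxo21: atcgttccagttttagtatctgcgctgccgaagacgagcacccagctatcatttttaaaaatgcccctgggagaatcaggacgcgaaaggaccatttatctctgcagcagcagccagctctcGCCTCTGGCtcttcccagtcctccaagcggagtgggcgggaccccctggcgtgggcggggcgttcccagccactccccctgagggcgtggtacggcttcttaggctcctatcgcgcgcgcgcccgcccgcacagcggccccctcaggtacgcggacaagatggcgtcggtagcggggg
All 4 are GC-rich, with 69% G or C in Fbxo2, 64.3% in Fbxo34, 59% in Fbxl12 and 63.7% in Fbxo21. Of the 66 genes 49 matched the promoter table, with 68 promoters, and their median was 59.2%, against 52.7% over the table's 32851 promoters. The motifs searched, on both strands and with values of these genes known, were TGANTCA for AP-1, TGACNNNGC for the core of the antioxidant response element, GTAAACA for FOXO, GAANNTTC for the core of the heat shock element, CACGTG for the E-box, TTTATGG for CDX and GCCNNNGGC for AP-2. RefSeq also lists a second promoter of Fbxl12, chr9:20642757-20643056 on the minus strand, which is not printed and holds a match to the antioxidant response element core at -123. In the 4 windows printed only AP-2 had matches, a pair in Fbxo2 that starts at positions -107 and -100 and overlaps, and 1 in Fbxo21 at -128, where -1 is the base before the start. That motif occurs in 16.6% of all promoters in the table and in 23.5% of those of F-box genes. A match is a run of letters and not a measured site.

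At an unadjusted p of 0.05, 13 of the 66 genes passed in siSox2, 17 in siPsmd14 and 7 in siDdb1 (19.7%, 25.8% and 10.6%), beside 19.1%, 17.1% and 9.86% of all genes. Between siPsmd14 and siSox2 19 passed, between siDdb1 and siSox2 16, and between siPsmd14 and siDdb1 8 (28.8%, 24.2% and 12.1%), beside 19.5%, 19% and 12.4% of all genes.

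In siPsmd14, 3 F-box genes rose and none fell. Fbxo2, which binds high-mannose glycans on misfolded glycoproteins and is known chiefly from neurons, and Fbxo32, the muscle atrophy ligase atrogin-1, were each about 5.6-fold higher than in siNonTarget, and Fbxo34 was 1.7-fold higher. These 3 are 4.55% of the 66, and 1.89% of all genes tested passed in this comparison, 1.7% higher and 0.187% lower. Without single arrays the number of F-box genes that passed lay between 2 and 4. The 343 genes that passed among all became 12 and 10 without siNonTarget replicate 1 and 2, 38 without siPsmd14 replicate 1 and 663 without siPsmd14 replicate 2.

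Fbxo2 had signals of 11.49 and 11.23 in siPsmd14, against 8.93 and 8.82 in siNonTarget. The siSox2 arrays had 8.40 and 8.28 and the siDdb1 arrays 8.64 and 8.76, so the siPsmd14 arrays lay above all 6 others. The fold change against siNonTarget was 2.48 (SE 0.14, adjusted p = 0.000434, n = 2 arrays per group), the 15th highest of 18193 genes. Set against the other knockdowns, Fbxo2 was higher in siPsmd14 than in siSox2 by 3.02 (adjusted p = 6.01e-05) and than in siDdb1 by 2.66 (adjusted p = 0.000556). These 3 comparisons share the siPsmd14 arrays, and each passed without any single array of the 8. In siSox2 the fold change against siNonTarget was -0.54 (95% interval -0.85 to -0.22, adjusted p = 0.0851), and in siDdb1 it was -0.17.

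Fbxo2 belongs to a small group of F-box genes whose products share a sugar-binding domain, with Fbxo6, Fbxo17, Fbxo27 and Fbxo44. Only Fbxo2 passed the threshold among the 5 by their representative probe sets, in any of the 6 comparisons. Fbxo44 and then Fbxo6 lie next to Fbxo2, on one side, among the protein-coding genes of mouse chromosome 4 in RefSeq. In siPsmd14 Fbxo44 read 6.01 and 5.73, against 5.95 and 5.98 in siNonTarget (-0.09, 95% interval -0.42 to 0.24). Fbxo6 read 9.47 and 8.67 in siPsmd14, which lie on either side of the 9.08 and 9.11 of siNonTarget (-0.03, 95% interval -0.53 to 0.47). The siPsmd14 and siNonTarget arrays overlapped for Fbxo44 and Fbxo6 in this comparison. Whether the response of Fbxo2 differed from that of its neighbours was not tested.

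Fbxo17 lay on the other side. It read 6.51 and 6.50 in siPsmd14 and 6.39 and 6.96 in siDdb1, below the 7.39 and 7.14 of siNonTarget. Its fold change in siPsmd14 was -0.76 (SE 0.18, adjusted p = 0.0935), the lowest of the 66, and in siDdb1 it was -0.59 (adjusted p = 0.426), so it passed in neither. Fbxo27 had a fold change of 0.36 in siSox2, -0.18 in siPsmd14 and -0.18 in siDdb1. A second, dimmer probe set of Fbxo27 was lower in siPsmd14 than in siSox2 (-0.64, adjusted p = 0.0337) and also passed, at -0.59, for siDdb1 against siSox2 (adjusted p = 0.0427), while the representative one gave -0.54 in both comparisons and did not pass.

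**Figure D2:**
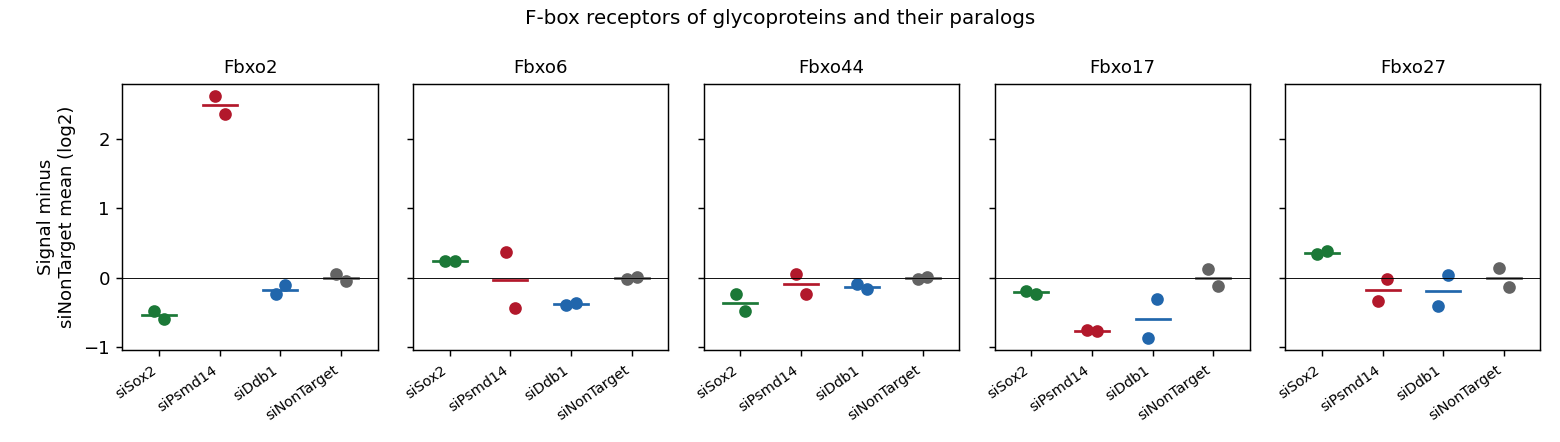
Signal of the 5 F-box genes of the sugar-binding group on each array, minus the mean of the siNonTarget arrays of the same probe set (log2); points are arrays and lines are group means. Fbxo2 in siPsmd14 lies about 2.48 above its control, while both siPsmd14 arrays of Fbxo17 lie about 0.76 below theirs.

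Fbxo32 had signals of 6.73 and 7.06 in siPsmd14, against 4.14 and 4.70 in siNonTarget. The siSox2 arrays, at 4.41 and 4.33, lay within the range of the control arrays, and the siDdb1 arrays, at 5.35 and 5.11, above both of them. The fold change in siPsmd14 was 2.48 (SE 0.20, adjusted p = 0.00206), the 16th highest of all genes. Fbxo32 was also higher in siPsmd14 than in siSox2 (2.53, adjusted p = 0.000671) and than in siDdb1 (1.67, adjusted p = 0.0143). The first of these and the comparison with siNonTarget passed without any single array. The comparison with siDdb1 did not pass without siPsmd14 replicate 1 (adjusted p = 0.0698), siDdb1 replicate 1 (0.0747) or siDdb1 replicate 2 (0.0727), nor with its 4 arrays alone (0.0772).

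In siDdb1 the fold change of Fbxo32 was 0.81 (SE 0.20, 95% interval 0.36 to 1.26, adjusted p = 0.292), the highest of the 66 in that group, and it did not pass. Against siSox2 it was 0.86 higher in siDdb1 (adjusted p = 0.0569). The gene's other probe sets ran the same way in siPsmd14. One read 6.58 and 6.13 in siPsmd14 and 4.62 and 4.60 in siNonTarget (1.75, adjusted p = 0.00728), and the dimmest read 4.90 and 4.33 in siPsmd14 and 3.56 and 3.95 in siNonTarget (0.86, adjusted p = 0.0874). In siDdb1 these gave 0.64 and 0.05. The first of these was 3.36-fold higher in siPsmd14, and its mean over all arrays was 5.227, against 5.230 for the representative one. The siPsmd14 arrays enter that mean, so the choice of the probe set that gave 2.48 was not independent of the rise. The other muscle-atrophy F-box gene measured, Fbxo30, had a fold change of 0.18 in siPsmd14 (adjusted p = 0.548), and those in siSox2 and siDdb1 were -0.04 and -0.06. Its other 3 probe sets disagreed in siPsmd14, at 0.62 (SE 0.17, adjusted p = 0.130, both arrays above the control), 0.18 and -0.21, and none passed.

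Fbxo34 read 9.26 and 9.19 in siPsmd14, 8.96 and 8.64 in siDdb1, and 8.52 and 8.40 in siNonTarget. The siPsmd14 arrays lay above all others, and those of siDdb1 also lay above the control arrays. Its fold change was 0.77 in siPsmd14 (SE 0.14, adjusted p = 0.0402) and 0.34 in siDdb1 (adjusted p = 0.579). Against siSox2 (8.37 and 8.41) it was higher in siPsmd14 by 0.84 (adjusted p = 0.0177). The call against siNonTarget was lost without siNonTarget replicate 1 or 2, siSox2 replicate 1 or 2 or siPsmd14 replicate 1 or 2 (adjusted p = 0.0553 to 0.253), and with only the 4 arrays of the comparison (0.0549). The call against siSox2 was lost without siSox2 replicate 1 or 2 or siPsmd14 replicate 1 (up to 0.108). Atg14, an autophagy gene next to Fbxo34 on chromosome 14, had a fold change of 0.46 in siPsmd14 against siNonTarget (adjusted p = 0.146) and was higher in siPsmd14 than in siSox2 by 0.71 (adjusted p = 0.0278).

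The 2 siPsmd14 arrays differed in measures of RNA quality. The 3′ to 5′ difference of the Actb control probe sets was 0.346 log2 units on siPsmd14 replicate 1 and 0.197 on replicate 2, against 0.174 and 0.158 in siNonTarget, and 18S ribosomal RNA read 10.42 and 12.51 on the 2 siPsmd14 arrays, against 10.85 and 11.25 in siNonTarget. Fbxo2, Fbxo32 and Fbxo34 were above the control on both arrays. Fbxo4, reported as a receptor for cyclin D1, was also above the control on both, but its siPsmd14 arrays lay far apart. It read 5.91 on siPsmd14 replicate 1 and 4.80 on replicate 2, against 4.48 and 4.67 in siNonTarget. Its fold change of 0.78 did not pass (SE 0.30, adjusted p = 0.279).

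**Figure D3:**
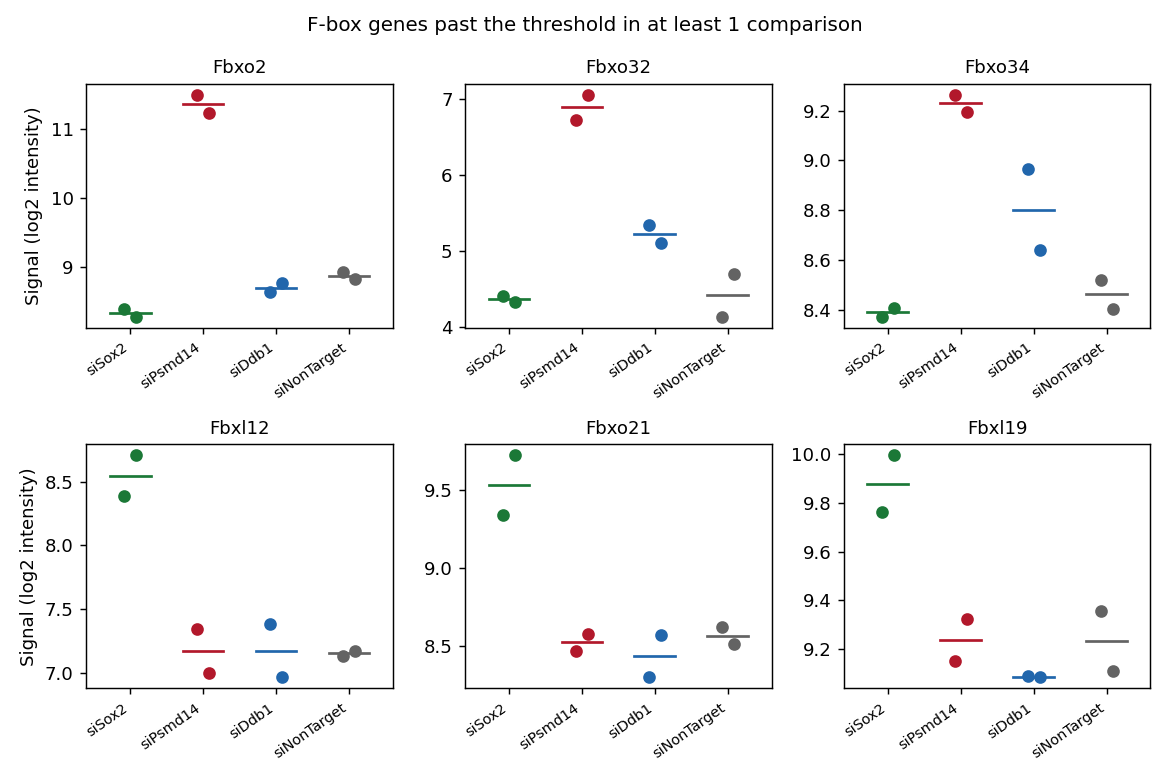
Signal on each array (log2 intensity, axis range set per gene) of the 6 F-box genes that passed the threshold in at least 1 of the 6 comparisons; points are arrays and lines are means of 2. Fbxo2, Fbxo32 and Fbxo34 are highest on the siPsmd14 arrays, and Fbxl12, Fbxo21 and Fbxl19 on the siSox2 arrays.

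In siSox2, Fbxl12 and Fbxo21 rose and no F-box gene fell. Fbxl12, whose ligase has been reported in the mouse to target the aldehyde dehydrogenase ALDH3 during trophoblast differentiation, was 2.62-fold higher than in siNonTarget. Fbxo21, a receptor reported for the transcriptional regulator EID1, was 1.95-fold higher. They are 3.03% of the 66, and 4.28% of all genes passed in this comparison, 2.81% higher and 1.46% lower. Leaving out either siNonTarget array, or siSox2 replicate 2, brought the count to 0. Among all genes 778 passed, and 221 and 104 did without siNonTarget replicate 1 and 2 and 191 without siSox2 replicate 2.

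Fbxl12 read 8.38 and 8.70 in siSox2, against 7.13 and 7.18 in siNonTarget, with 7.35 and 7.0 in siPsmd14 and 7.38 and 6.97 in siDdb1. Both siSox2 arrays lay more than 1 log2 unit above the control arrays, and those of the other knockdowns lay on either side of the control. The fold change in siSox2 was 1.39 (SE 0.19, adjusted p = 0.00663). In siPsmd14 it was 0.02 (95% interval -0.40 to 0.44) and in siDdb1 0.02 with the same interval. Fbxl12 was lower in siPsmd14 than in siSox2 (-1.37, adjusted p = 0.00724), and siDdb1 set against siSox2 gave -1.37 as well (adjusted p = 0.00703). Both of these calls were lost without siSox2 replicate 2 (adjusted p = 0.0662 and 0.0683). Without siNonTarget replicate 1, siNonTarget replicate 2 or siSox2 replicate 2 the fold change of siSox2 against siNonTarget was 1.37, 1.41 and 1.23 (adjusted p = 0.0631, 0.0842 and 0.066). The genes beside Fbxl12 on chromosome 9, Zfp846 and Ubl5, had fold changes of -0.26 and 0.00 in siSox2 and did not pass.

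Fbxo21 read 9.34 and 9.72 in siSox2, against 8.62 and 8.51 in siNonTarget, with 8.47 and 8.58 in siPsmd14 and 8.30 and 8.57 in siDdb1. The siSox2 arrays lay above all others. Its fold change was 0.96 in siSox2 (SE 0.16, adjusted p = 0.0169), and it was -0.04 in siPsmd14 and -0.13 in siDdb1. It was lower in siPsmd14 than in siSox2 (-1.01, adjusted p = 0.0156), and siDdb1 set against siSox2 gave -1.10 (adjusted p = 0.00987). Both calls were lost without siSox2 replicate 2, the first also without siPsmd14 replicate 1 and the second without siDdb1 replicate 1 (adjusted p up to 0.113 and 0.0822). The first was also lost with only the 4 arrays of the comparison (0.0643). Without siNonTarget replicate 1, siNonTarget replicate 2 or siSox2 replicate 2 the fold change of siSox2 against siNonTarget was 1.02, 0.91 and 0.77 (adjusted p = 0.0893, 0.161 and 0.151). A second probe set of Fbxo21 read 8.06 and 8.40 in siSox2 and 7.92 and 7.77 in siNonTarget, a difference of 0.39 that did not pass (adjusted p = 0.231). Fbxw8, the partner of CUL7 and the second gene along from Fbxo21 on chromosome 5, had a fold change of 0.40 in siSox2 (adjusted p = 0.184), while Tesc, which lies between them, had -0.52 (adjusted p = 0.0952).

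**Figure D4:**
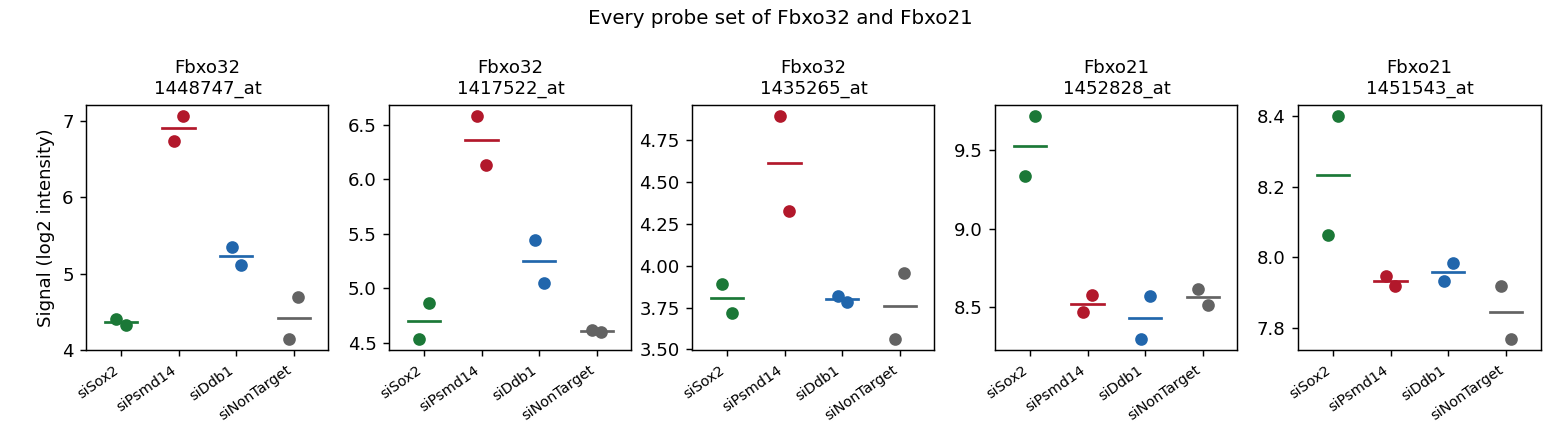
Every probe set of Fbxo32 (3) and Fbxo21 (2) by array (log2 intensity, axis range set per probe set, title giving the probe set's identifier); points are arrays and lines are means of 2. The siPsmd14 arrays are highest on all 3 probe sets of Fbxo32, and the siSox2 arrays are highest on both probe sets of Fbxo21.

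Fbxl19, a protein with a CXXC domain that binds CpG islands, lay just outside the threshold in siSox2. It read 9.77 and 9.995 in siSox2, against 9.35 and 9.11 in siNonTarget, and the groups did not overlap (0.65, SE 0.14, adjusted p = 0.0506). Its siDdb1 arrays, at 9.09 and 9.08, lay below those of siSox2 (-0.79, adjusted p = 0.0227), a call that was lost without siSox2 replicate 2 (adjusted p = 0.188), siDdb1 replicate 1 (0.121) or siDdb1 replicate 2 (0.0945) and with the 4 arrays alone (0.0501). In siPsmd14 against siSox2 the difference was -0.64 (adjusted p = 0.0539).

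Markers of trophoblast cells moved with the siSox2 group. Of 8 markers 7 rose in siSox2 and 3 in siPsmd14, and the log2 of their summed signal was 13.74 to 14.68 in siSox2, 13.15 to 13.42 in siPsmd14 and 11.54 to 11.68 in siDdb1, against 10.81 to 11.02 in siNonTarget. Of 5 primitive endoderm markers 3 rose in siSox2, with summed signals of 8.72 to 9.28 there, 7.36 to 7.46 in siPsmd14 and 7.49 to 7.60 in siDdb1, against 7.004 to 7.07 in siNonTarget. Of 4 neural markers 3 fell in siSox2, where they summed to 9.02 to 9.24, against 10.32 to 10.40 in siNonTarget. No marker is at 0 in these values. The part of such cells in the rise of any F-box gene was not tested, and in bulk RNA a change in the share of cells of a type and a change in RNA per cell cannot be told apart.

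Next below Fbxl19 in siSox2 was Fbxo4, at 0.55 (adjusted p = 0.457). At the low end stood Fbxl17, which takes part in quality control of BTB-domain proteins, at -0.68 (adjusted p = 0.0825), Fbxo16 at -0.55, Fbxo2 at -0.54 and Fbxo7 at -0.46 (adjusted p = 0.187). Fbxo7 is in humans a gene of familial parkinsonism, and its product binds the proteasome regulator PI31. The signals of Fbxl17 were 6.55 and 6.80 on the siSox2 arrays, 6.99 and 6.87 on those of siPsmd14 and 6.47 and 6.91 on those of siDdb1, against 7.26 and 7.45 on those of siNonTarget. All 6 knockdown arrays lay below both control arrays. The 3 comparisons share those control arrays, and none passed (siPsmd14 -0.43, siDdb1 -0.66). A second, dimmer probe set of Fbxl17, with a mean of 4.69, gave -0.04 in siSox2, -0.02 in siPsmd14 and -0.03 in siDdb1. Its arrays overlapped those of the control in each.

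In siDdb1 no F-box gene passed the threshold against siNonTarget in limma, where 0.044% of all genes did, all of them higher. These were 8 genes, and their number was 98 without siDdb1 replicate 2, while leaving out any of the other 7 arrays gave 0. At an unadjusted p of 0.05, 7 F-box genes passed. The 4 highest were Fbxo32 (0.81), Fbxl20 (0.46), Fbxw7 (0.45) and Fbxw9 (0.44), and the 4 lowest Fbxl17 (-0.66), Fbxo17 (-0.59), Fbxl13 (-0.43) and Fbxo6 (-0.38). Fbxw5, a WD40 receptor that has been reported to work with CUL4-DDB1 as well as with SCF, read 6.02 and 5.82 in siDdb1, against 5.83 and 5.73 in siNonTarget (0.14, 95% interval -0.15 to 0.43). It did not pass in any comparison.

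The direct comparisons returned the same genes that the comparisons with siNonTarget had named, with Fbxl19 added. They use the same knockdown arrays and the same fit, so they are not separate evidence for these genes. Between siPsmd14 and siSox2, Fbxo2, Fbxo32 and Fbxo34 were higher and Fbxl12 and Fbxo21 lower in siPsmd14, 5 of the 66 (7.58%), beside 4.03% of all genes (1.98% higher and 2.05% lower). Between siDdb1 and siSox2, Fbxl12, Fbxo21 and Fbxl19 were lower in siDdb1, 3 of the 66 (4.55%), beside 4.63% of all genes (2.03% higher and 2.6% lower). Between siPsmd14 and siDdb1, Fbxo2 and Fbxo32 were higher in siPsmd14, 2 of the 66 (3.03%), beside 0.588% of all genes (0.456% higher and 0.132% lower). The counts were 2 without siSox2 replicate 2 and 3 without siPsmd14 replicate 1 for siPsmd14 against siSox2. For siDdb1 against siSox2 they were 0 without siSox2 replicate 2, 1 without siDdb1 replicate 1 and 2 without siDdb1 replicate 2. For siPsmd14 against siDdb1 the count was 1 without siPsmd14 replicate 1 or either siDdb1 array and 5 without siPsmd14 replicate 2. The counts over all genes moved as well. For siPsmd14 against siSox2 the 734 genes became 205 without siSox2 replicate 2, 242 without siPsmd14 replicate 1 and 453 without either siNonTarget array. For siDdb1 against siSox2 the 842 became 204 without siSox2 replicate 2 and 198 and 543 without siDdb1 replicate 1 and 2. For siPsmd14 against siDdb1 the 107 became 9 and 432 without siPsmd14 replicate 1 and 2, 18 and 37 without siDdb1 replicate 1 and 2 and 26 without either siNonTarget array.

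Beyond the genes that passed, the lowest value between siPsmd14 and siDdb1 was that of Fbxo33, which read 9.003 and 9.53 in siPsmd14 and 9.82 and 9.91 in siDdb1 (-0.60, adjusted p = 0.218). Its second probe set gave -0.02. Fbxo45, Fbxl6 and Fbxw17 followed at -0.41, -0.36 and -0.34, and at the high end Fbxo4 and Fbxo34 at 0.74 and 0.43, none past the threshold. Between siPsmd14 and siSox2 the values next to those that passed were 0.46 for Fbxo24, -0.64 for Fbxl19 and -0.55 for Fbxo17. Between siDdb1 and siSox2 the high end held Fbxo32 (0.86), Fbxo33 (0.46), Fbxw5 (0.44) and Fbxl20 (0.43), and Fbxo6 stood at -0.62, none past the threshold.

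Of 7 F-box genes known from the cell cycle and signalling (Fbxl12, Fbxo4, Fbxo5, Fbxo31, Fbxw7, Fbxw8 and Fbxw11), Fbxl12 was the 1 that passed against siNonTarget, in siSox2. The stem cell marker Fbxo15 passed in no comparison. Its signal was 12.03 and 12.19 on the siSox2 arrays, 11.83 and 11.79 on those of siPsmd14 and 12.13 and 11.94 on those of siDdb1, against 12.08 and 12.16 on those of siNonTarget. The siPsmd14 arrays lay below all others, at -0.31 from the control (95% interval -0.60 to -0.02, adjusted p = 0.316), and the siSox2 difference was -0.01 (95% interval -0.31 to 0.28). Fbxo5, the inhibitor of the anaphase-promoting complex also called Emi1, read 10.86 and 11.28 in siPsmd14, against 11.43 and 11.44 in siNonTarget (-0.37, adjusted p = 0.358). It was at -0.15 in siSox2 and -0.25 in siDdb1. Fbxo31, another receptor reported for cyclin D1, had -0.53 in siPsmd14 on its representative probe set (adjusted p = 0.178) and -0.76 on its other one (adjusted p = 0.215).

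Fbxw7, the receptor for cyclin E, MYC and NOTCH, had 8.88 and 9.19 on the siSox2 arrays, 9.36 and 9.34 on those of siPsmd14 and 9.55 and 9.20 on those of siDdb1, against 8.84 and 9.0 on those of siNonTarget. All 4 arrays of siPsmd14 and siDdb1 lay above both control arrays, and those of siSox2 overlapped them. The fold changes were 0.43 in siPsmd14 (adjusted p = 0.262) and 0.45 in siDdb1 (adjusted p = 0.497), and a second probe set gave 0.73 (adjusted p = 0.0955) and 0.56 (adjusted p = 0.436), none past the threshold. Fbxw11, also called beta-TrCP2, the receptor for beta-catenin and IkappaB, had fold changes of 0.25, 0.25 and 0.20 in siSox2, siPsmd14 and siDdb1, with intervals that reached from -0.06 to 0.51. Fbxl5, which senses iron and targets the iron regulatory protein IREB2, had -0.05, -0.11 and 0.12 in the same order. Fbxw9 had 0.63 in siPsmd14 (adjusted p = 0.286), and its other probe set 0.80 (adjusted p = 0.127). At the low end in siPsmd14, beside Fbxo17 and Fbxo31, stood Fbxl6 (-0.47) and Fbxo33 (-0.44), neither past the threshold. Fbxl21, a receptor for the cryptochromes of the circadian clock, was dim, with a mean of 3.26, and had 0.32, 0.32 and 0.25 in siSox2, siPsmd14 and siDdb1, none past the threshold.

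The higher-numbered Fbxw genes, Fbxw10 and those between Fbxw13 and Fbxw28, were represented by 11 genes, and none passed in any comparison. Their mean signals ran from 2.90 to 8.28, and 9 of all 18 Fbxw genes lay under 5, so dim probe sets limit this result. The median fold change of the 11 was -0.18 in siSox2, -0.04 in siPsmd14 and -0.08 in siDdb1. Several are close copies of each other, so a probe set may read more than its named gene, and 2 probe sets that carry several such symbols were left out. Among genes with more than 1 probe set, Fbxo22 gave unlike values, 0.06 on the representative one and -0.58 on another in siPsmd14 (adjusted p = 0.171 for that one), neither past the threshold.

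Among the other genes of SCF ligases, none of the receptors or core subunits listed passed the threshold. Among the genes of substrates, Jun and Cdkn1a passed against siNonTarget. Of 6 F-box genes with other symbols (Skp2, Btrc, Ccnf, Kdm2a, Kdm2b and Lmo7) none passed in any of the 6 comparisons, with fold changes against siNonTarget between -0.36 and 0.28. Of 18 genes of the SCF core and of cullin neddylation, among them Cul1, Skp1, Rbx1 and Nedd8, none passed either. Their medians were 0.03 in siSox2, -0.02 in siPsmd14 and -0.04 in siDdb1, and Cul7 in siSox2 had the highest value (0.69, adjusted p = 0.0539). Of 15 genes whose proteins are known SCF substrates, Jun rose in siSox2 and in siPsmd14 (2.22 and 1.95, adjusted p = 0.00197 and 0.00789), as did Cdkn1a (1.24 and 1.32, adjusted p = 0.0322 and 0.0423). These are 2 of the 15 in each comparison, beside 4.28% and 1.89% of all genes. In siDdb1 none of the 15 passed against siNonTarget, with fold changes from -0.42 to 1.13. In the direct comparisons, 1 of the 15 was higher in siPsmd14 than in siSox2, where 4.03% of all genes passed. Likewise 1 was lower in siDdb1 than in siSox2, where 4.63% of all genes passed, and none passed between siPsmd14 and siDdb1. Jun encodes an AP-1 subunit and Cdkn1a the cell cycle inhibitor p21. The median of that list was 0.11 in siSox2, -0.03 in siPsmd14 and 0.11 in siDdb1. These are transcript levels, and the proteins were not measured.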

How the data were processed

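RNA of 8 samples was measured on 1-colour Affymetrix arrays. The starting amount was 5 ng of total RNA, amplified before labelling, per the labels' protocols. The submitters' processing notes name RMA for the deposited intensity values. The sources used here give neither its version nor its settings. RMA usually equalises the arrays' distributions, so a fold change is measured against most other probe sets.

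Samples were grouped by their titles. After 64 control probe sets were left out, log2 of 45037 probe sets entered 1 limma model (limma 3.58.1, R 4.3.3, lmFit and eBayes without trend) over all 8 arrays and 4 groups. Benjamini-Hochberg adjustment ran over all 45037, and every adjusted p comes from this fit unless a setting is named. Gene symbols came from GEO's platform annotation, which gave 34945 probe sets 1 symbol. All 66 F-box symbols matched RefSeq through Entrez identifiers. Promoters came from RefSeq (GRCm38.p6).

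Named were the F-box genes of set role groups, those that passed in any comparison, and the 4 highest and 4 lowest per comparison where they add to the account. Fbxo22, the second probe sets and the neighbouring genes were described after their values were seen. The members and lists were chosen with earlier results of these data known. The script was tested on simulated data. Alternatives are given below. The number of arrays limits the precision.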

Additional observations from a re-analysis of the deposited data

How the results depend on the processing

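The counts of F-box genes past the threshold kept within 1.5 times their value, or at 0 in siDdb1 against siNonTarget, when array medians were subtracted, after quantile normalization, with trend and robust, without probe sets under a mean log2 value of 5, and with the probe set of smallest p. Taking the probe set of smallest p could not lower a count, as the representative one was among the candidates. For Fbxo32 the filter at 5 was no independent check. Its mean over all arrays was 5.23, raised by the siPsmd14 arrays, while its siSox2 and siNonTarget arrays read under 5. The exceptions among the other settings follow. At an adjusted p of 0.1 the count was 5 for siSox2 against siNonTarget and 6 for siDdb1 against siSox2. With 1 probe set per gene it was 5 for siDdb1 against siSox2, and with only the 4 arrays of the comparison it was 1 for siPsmd14 against siDdb1. The cause was not tested beyond these constructions. Leaving out each array in turn gave counts of 0 to 2 for siSox2 against siNonTarget, 2 to 4 for siPsmd14, 0 to 0 for siDdb1, 2 to 5 for siPsmd14 against siSox2, 0 to 4 for siDdb1 against siSox2 and 1 to 5 for siPsmd14 against siDdb1. A group left with 1 array was assumed to vary like the others. No fold change of the 6 F-box genes in a comparison they passed turned its sign under any setting. Little follows from that, because settings that change only the SE or the probe sets tested leave a fold change as it was. These genes had also been picked for passing.

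The replicate numbers are shared by label only. With the replicate number as a block the counts were 2, 3, 0, 5, 3 and 2 in the order of the comparisons above. Deviations of same-numbered arrays correlated, in that order, at 0.24, 0.06, -0.21, 0.08, -0.22 and 0.19, and with the siDdb1 numbers exchanged, a setting chosen after seeing the data, the counts were 2, 3, 0, 5, 4 and 2. The number of arrays limits the precision.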
